A study of Oryza sativa Japonica Group with 20 samples.

Results

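EMF2b sites that lay on H3K27me3 and had no PLT5 peak in wild-type rice root tips made up 1078 of the 12612 EMF2b sites found in both wild-type libraries (8.55%). EMF2b is a subunit of Polycomb repressive complex 2 (PRC2), the enzyme complex that writes H3K27me3, a histone mark of silenced genes. PLT5 is a PLETHORA transcription factor of the AP2 class, a family that keeps root meristem cells dividing. H3K4me3 marks the start of active genes, and places that carry it together with H3K27me3 are called bivalent. Sites with EMF2b and H3K27me3 but without PLT5 are therefore places where PRC2 and its product were listed and no PLT5 peak was. A missing peak does not show that PLT5 itself was absent.

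The maps came from CUT&Tag, in which a transposase tethered to an antibody cuts and tags the chromatin around the bound protein. Nuclei were taken from the terminal 0.8 cm of roots of seedlings 7 days old, from wild-type plants of cultivar ZH11 (WT) and from plt345, a triple mutant of PLT3, PLT4 and PLT5. Peak lists of 14 of the 20 samples were used, with 2 libraries per group: EMF2b, H3K27me3 and H3K4me3 in both genotypes and PLT5 in WT. The IgG samples and the PLT5 samples of the mutant were not analysed here. No source used here says that the 2 libraries of a group came from separate plants, so the spread between them may be technical. Whole root tips hold many cell types, so a mark carried by fewer cells and a weaker mark in each cell cannot be told apart.

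The sites were chosen by the presence or absence of listed peaks in WT. Peaks of both WT EMF2b lists were merged into 17368 regions, of which 12612 were touched by both lists. No peak of either WT PLT5 list overlapped 3716 of these, and 1078 of the 3716 were overlapped by peaks of both WT H3K27me3 lists. A further 313 had H3K27me3 in 1 WT library and 2325 in none. Presence of EMF2b and H3K27me3 in WT and absence of PLT5 peaks are thus fixed by the choice and are no result. Sites are named by their positions in the lists. No source used here names the assembly of the lists, so the sites were not assigned to genes and the tissue was not checked against marker genes.

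The limits of the choice were crossed by narrow margins at some sites. The least H3K27me3 cover of a chosen site in its lesser library was 3 bp, and 43 sites had under 150 bp. The nearest PLT5 peak to a chosen site was 3 bp away, and 99 sites had one within 1 kb. Just outside, the smallest overlap that removed a site for PLT5 was 6 bp, and 20 sites with under 150 bp of PLT5 were removed. Of the 313 sites with H3K27me3 in 1 WT library, 46.6% and 61.0% had an EMF2b peak in plt345 replicates 1 and 2.

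In WT the sites were narrow and of moderate strength. Their median width was 609.5 bp, and the median of their mean WT EMF2b −log10 q, the peak caller's measure of evidence, was 9.88 (range 4.56 to 44.7). EMF2b sites on H3K27me3 that also had PLT5 in both libraries, 3259 in number, were wider and stronger, with medians of 835 bp and 16.8. The median EMF2b fold enrichment of the PLT5-free sites was 4.46 in replicate 1 and 4.61 in replicate 2. EMF2b sites with neither H3K27me3 nor PLT5 had about the same strength, with a median −log10 q of 9.85.

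The sites lay in H3K27me3 domains, nearly always 1 to a domain. The 1078 sites fell in 1063 of the 25890 merged WT domains, 15 domains held 2, and none held more. Domains with a site had a median width of 1586 bp, against 1085 bp for all domains. All domains include those listed in 1 WT library only, and a wider domain is more likely to hold a site, so this comparison is not like for like. Taken per site, the median domain width was 1601 bp, against 1119 bp at the 3259 EMF2b sites on H3K27me3 with PLT5 in both libraries. H3K27me3 covered a median of 88.1% of the site, and the EMF2b summit of WT replicate 1 lay inside the domain at 995 sites (92.3%). Of these summits, 334 (33.6%) lay in the middle when the domain was divided into 3 equal parts, and 400 (40.2%) lay within 250 bp of a domain edge. A PLT5 peak lay elsewhere in the same domain for 101 of the 1063 domains (9.5%). The choice removed every site with a PLT5 peak on it, so this share has no like-for-like value over all domains.

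H3K4me3 was uncommon at the sites. It was present in both WT libraries at 168 sites, in 1 at 48 and in neither at 862. These 3 classes are called sites with H3K4me3, sites with H3K4me3 in 1 library and sites without H3K4me3. The share with a WT H3K4me3 peak was 18.7% and 16.9% in replicates 1 and 2, against 71.8% and 70.9% of the 3259 sites with PLT5. It was 54.3% and 53.6% over all 12612 EMF2b sites. The 2325 EMF2b sites with neither H3K27me3 nor PLT5 were nearer, at 31.0% and 31.1%. Sites with and without H3K4me3 had about the same EMF2b strength, with median −log10 q of 9.85 and 9.91, whereas the H3K27me3 −log10 q was lower with H3K4me3 (median 3.12 against 3.78) and the domain narrower (1274 bp against 1675.5 bp).

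**Figure D1:**
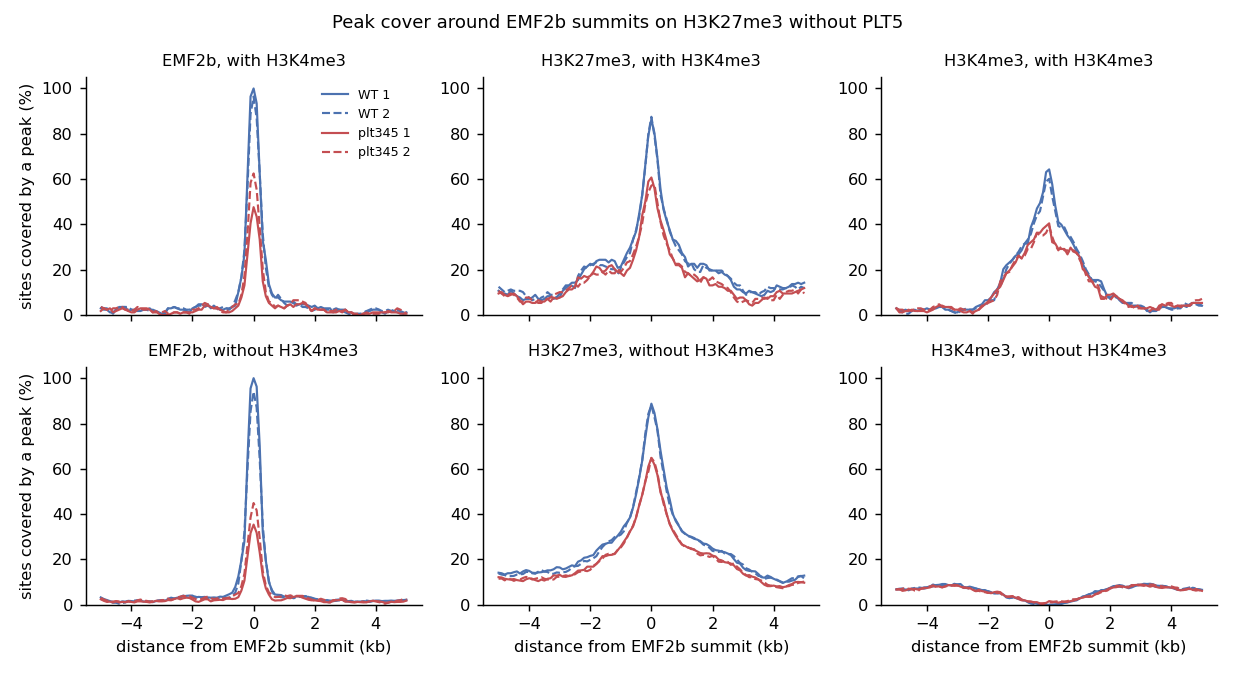
Share of sites (%) covered by a peak at each distance (kb) from the EMF2b summit of WT replicate 1, for sites with H3K4me3 in both WT libraries (top, 168 sites) and without it (bottom, 862 sites); blue lines are WT, red lines plt345, solid lines replicate 1 and dashed lines replicate 2. At the summit EMF2b of plt345 replicates 1 and 2 covered 47.6% and 62.5% of the sites with H3K4me3 and 35.4% and 44.9% of those without it.

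The profile around the summits shows where each mark lay. EMF2b cover was narrow: at 1 kb downstream in list coordinates it covered 6.0% and 5.4% of sites with H3K4me3 in WT. H3K27me3 spread further and covered 32.6% and 32.4% of the sites without H3K4me3 at 1 kb in WT. H3K4me3 covered 64.3% and 60.1% of the summits of its own class in WT and 40.5% and 39.3% in plt345. At 1 kb the WT libraries gave 25.6% and 26.8% and the mutant ones 25.6% and 24.4%. This class was picked for an H3K4me3 peak in both WT libraries, which favours WT cover at the site, so the lower mutant values at the summit are a description only. The summit was placed by WT EMF2b replicate 1, whose own cover there is 100% by choice.

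The first question was whether EMF2b remained at these sites in plt345. An EMF2b peak was found at 45.0% of them in plt345 replicate 1 (95% Wilson interval 42.0 to 48.0%) and at 56.3% in replicate 2 (53.3 to 59.2%), a mean of 50.6 ± 8.0% (SD, n = 2). The list of replicate 2 was also the longer, with 17891 peaks against 15342. EMF2b was kept, meaning present in both plt345 libraries, at 440 sites (40.8%), present in 1 at 212 and lost, meaning present in neither, at 426 (39.5%). Over all 12612 EMF2b sites the share kept was 68.6% and the share lost 19.0%. The choice asked for EMF2b in WT, so any disagreement between libraries appears here as loss.

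The share with EMF2b in plt345 was larger at PLT5-bound sites and about as low at other PLT5-free sites. At the 3259 sites with H3K27me3 and PLT5 in both libraries an EMF2b peak was found at 90.1% and 93.3% in plt345 replicates 1 and 2. With PLT5 in 1 library only (770 sites) the shares were 68.1% and 76.5%. At the 2325 EMF2b sites with neither PLT5 nor H3K27me3 they were 43.7% and 50.5%, the nearest to those of the chosen sites. These comparisons are over sites of the same 2 libraries and carry no test, since sites are not replicates.

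**Figure D2:**
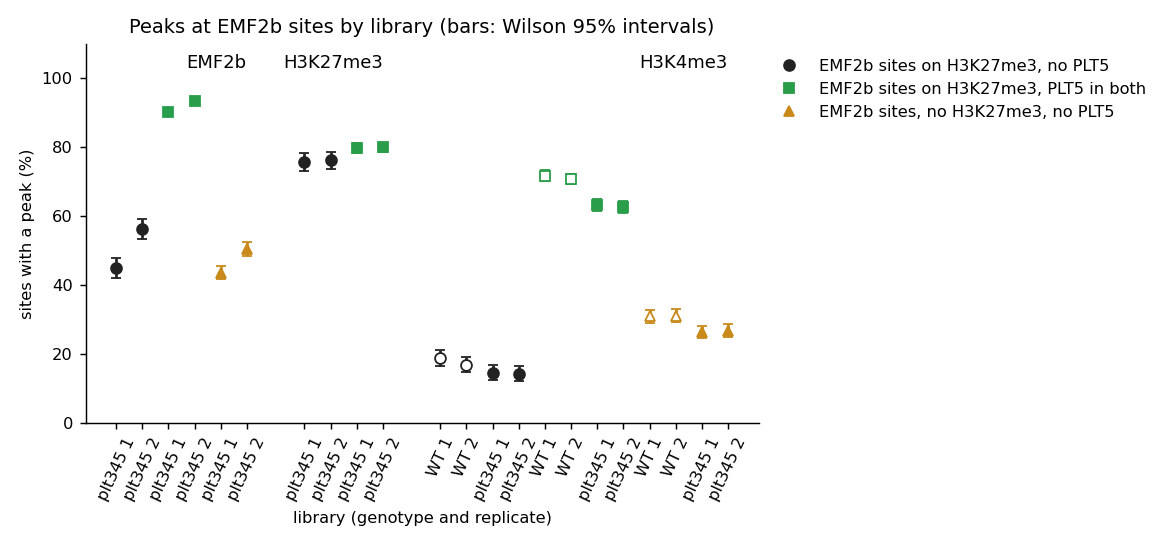
Share of sites (%) with a peak in each library, for EMF2b sites on H3K27me3 without PLT5 (circles, 1078), on H3K27me3 with PLT5 in both libraries (squares, 3259) and with neither (triangles, 2325); open symbols are WT, filled symbols plt345, and bars are Wilson 95% intervals that cover counting error only. The circles and triangles for EMF2b lie between 43.7% and 56.3%, and the squares at 90.1% and 93.3%.

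The contrast was also present within each range of WT EMF2b strength. When the sites were split into terciles of WT EMF2b −log10 q, at 8.67 and 11.3, the mean share with EMF2b in plt345 was 42.9 ± 7.09% in the lowest, 51.9 ± 5.32% in the middle and 57.1 ± 11.6% in the highest tercile (SD, n = 2). PLT5-bound sites in the same ranges gave 77.8 ± 5.11%, 83.0 ± 4.69% and 94.8 ± 1.54%. In each range both libraries were higher at PLT5-bound sites. Within the highest range PLT5-bound sites were still stronger, with a median −log10 q of 19.5 against 14.2, so that range is not matched closely.

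**Figure D3:**
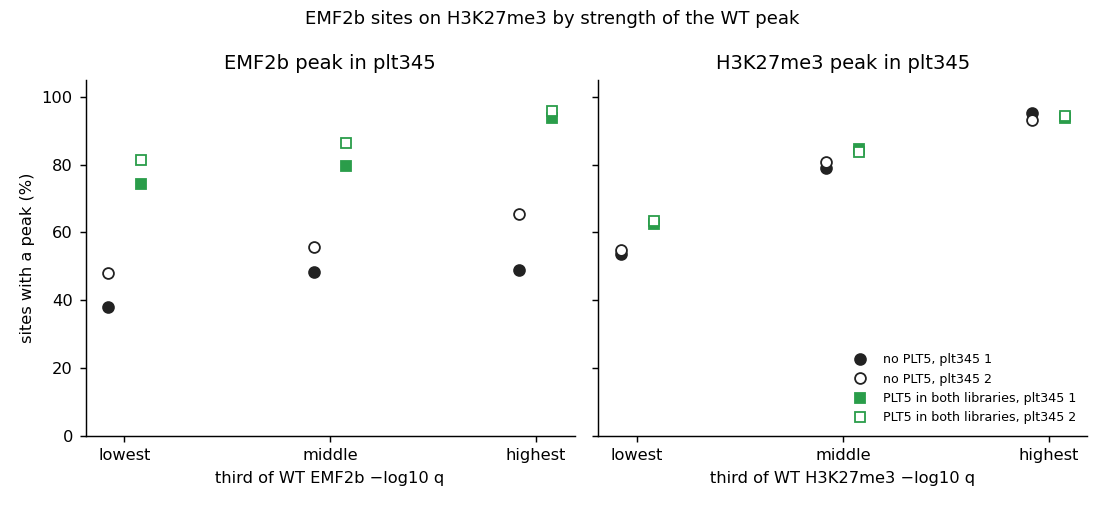
Share of sites (%) with an EMF2b peak (left) or an H3K27me3 peak (right) in plt345 replicate 1 (filled) and replicate 2 (open), by tercile of the WT −log10 q of the same mark, for sites without PLT5 (circles) and with PLT5 in both libraries (squares). EMF2b circles stay below the squares in every tercile, whereas H3K27me3 circles and squares rise together, to 95.3% and 93.1% and to 93.7% and 94.2% in the highest tercile.

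Because the choice fixes WT presence at 100%, sites were also chosen with 1 WT library and read in the other. Of 1851 sites chosen with WT replicate 1, EMF2b was found at 67.3% in WT replicate 2 (65.1 to 69.4%) and at 40.0% and 49.1% in plt345 replicates 1 and 2. Of 1675 chosen with WT replicate 2 the shares were 76.1% (74.0 to 78.0%), 42.4% and 53.3%. In both cases each plt345 library lay below the held-out WT library. The same held in the other direction: sites chosen with plt345 replicate 1 had EMF2b at 81.1% in plt345 replicate 2 and at 41.4% and 39.3% in WT, and those chosen with plt345 replicate 2 at 62.0%, 38.9% and 36.6%.

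The reverse choice gave a set of about the same size. EMF2b sites of both plt345 libraries with H3K27me3 in both and no WT PLT5 peak numbered 1013, and WT EMF2b was found at 44.9% and 42.4% of them. EMF2b was absent from both WT libraries at 475 (46.9%). At the 1078 sites chosen in WT it was absent from both plt345 libraries at 426 (39.5%). No share over all EMF2b sites of plt345 is given here, so the count of 475 is not read as a trait of PLT5-free sites.

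H3K27me3 was listed at these sites in plt345 more often than EMF2b. A peak was found at 75.9% of the sites in plt345 replicate 1 (73.2 to 78.3%) and 76.3% in replicate 2 (73.6 to 78.7%), a mean of 76.1 ± 0.262% (SD, n = 2). It was kept at 732 sites (67.9%), present in 1 library at 176 and lost at 170 (15.8%). Over all 5107 EMF2b sites on H3K27me3 the share kept was 70.9% and the share lost 13.6%, close to those of the chosen sites. PLT5-bound sites gave 79.8% and 80.1% in the 2 libraries. The H3K27me3 lists hold broad peaks and the EMF2b lists narrow ones, so shares of the 2 marks are not like for like. A gap was already present between WT replicates. In the held-out WT libraries H3K27me3 was found at 87.8% and 85.9% of sites and EMF2b at 67.3% and 76.1%.

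Loss of H3K27me3 followed the strength of the WT mark. In terciles of WT H3K27me3 −log10 q, divided at 2.85 and 4.74, the share with a peak in plt345 was 54.2 ± 0.985%, 79.8 ± 1.38% and 94.2 ± 1.57% (SD, n = 2). PLT5-bound sites in these ranges gave 62.9 ± 0.693%, 84.1 ± 0.447% and 93.9 ± 0.344%. The H3K27me3 lists of plt345 held 20841 and 20942 peaks against 23957 and 24185 in WT, and their median −log10 q was 2.73 and 2.59 against 3.34 and 3.36. The part of list length in the losses at weak sites was not tested.

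The held-out comparison for H3K27me3 was not symmetric. Sites chosen with WT replicate 1 had H3K27me3 at 87.8% in WT replicate 2 and at 69.0% and 69.5% in plt345, and those chosen with WT replicate 2 at 85.9%, 68.0% and 69.9%. Sites chosen with plt345 replicate 1 had it at 82.6% in plt345 replicate 2 but at 86.0% and 87.1% in WT. Those chosen with plt345 replicate 2 gave 83.7%, 86.2% and 87.2%. H3K27me3 of the mutant was thus found again in WT at least as often as in the other mutant library, while H3K27me3 of WT was found less often in the mutant. The WT H3K27me3 lists were also the longer, and the part of list length in this asymmetry was not tested. At equal numbers of peaks per antibody, 966 sites were chosen by both WT libraries. Their mean H3K27me3 share in plt345 was 81.7%, against 76.1% for the 1078 sites.

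H3K27me3 was lost in similar shares where EMF2b was lost and where it was kept. H3K27me3 was lost at 77 of the 426 sites that lost EMF2b (18.1%, 14.7 to 22.0%) and at 61 of the 440 sites that kept it (13.9%, 10.9 to 17.4%). It was kept at 68.5% and 70.2% of them, with intervals of 64.0 to 72.8% and 65.8 to 74.3%. The most frequent states were both kept, at 309 sites (28.7%), and EMF2b lost with H3K27me3 kept, at 292 (27.1%). Over all 5107 EMF2b sites on H3K27me3 these states held 53.9% and 10.3%. Both were lost at 77 sites (7.14%), against 2.39% of the 5107 sites, and EMF2b was kept without H3K27me3 at 61 (5.66%), against 9.58% of the 5107 sites.

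**Figure D4:**
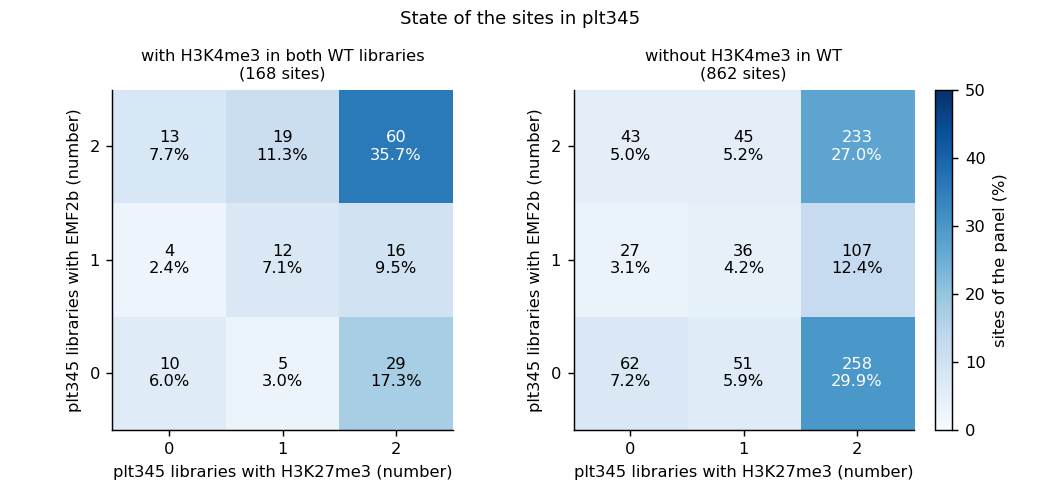
Number and share (%) of sites by how many of the 2 plt345 libraries had an EMF2b peak (rows) and an H3K27me3 peak (columns), for sites with H3K4me3 in both WT libraries (left, 168) and without it (right, 862). The fullest cell is both marks in both libraries on the left, with 60 sites, and EMF2b in neither with H3K27me3 in both on the right, with 258 sites.

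Sites with H3K4me3 kept EMF2b more often than sites without it. With H3K4me3 an EMF2b peak was found at 56.5% and 72% in plt345 replicates 1 and 2, and without it at 42.0% and 52.2%. The difference was 14.6 and 19.8 percentage points, a mean of 17.2 ± 3.72 (SD, n = 2), and both libraries pointed the same way. No test was made of this difference, since sites are not replicates and only 2 libraries were read. By state, EMF2b was lost at 44 of 168 sites with H3K4me3 (26.2%, 20.1 to 33.3%) and at 371 of 862 without it (43.0%, 39.8 to 46.4%). The 48 sites with H3K4me3 in 1 library gave 58.3% and 75% and were not joined to either class.

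This difference was seen in every tercile of EMF2b strength. It was 14.8 ± 3.91 percentage points in the lowest, 13.8 ± 7.94 in the middle and 23.4 ± 0.648 in the highest tercile (SD, n = 2), with 61, 49 and 58 sites with H3K4me3. PLT5-bound sites also kept EMF2b more often with H3K4me3, at 93.8% and 96.3% against 80.2% and 86.0% without it.

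Between WT replicates the EMF2b shares differed little by H3K4me3. Of sites chosen with WT replicate 1, the held-out WT replicate 2 had EMF2b at 69.3% with H3K4me3 (290 sites) and 66.3% without it (1477 sites). For sites chosen with WT replicate 2 the shares in WT replicate 1 were 75.8% (273 sites) and 75.8% (1329 sites). In plt345 replicates 1 and 2 the same sites gave 54.1% and 68.3% with and 36.4% and 44.5% without H3K4me3 for the first choice. For the second choice they gave 55.3% and 70.0% with and 38.8% and 48.7% without H3K4me3. At sites with H3K4me3 replicate 2 of plt345 was thus close to the held-out WT library and replicate 1 lower, while at sites without it both plt345 libraries were well below.

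**Figure D5:**
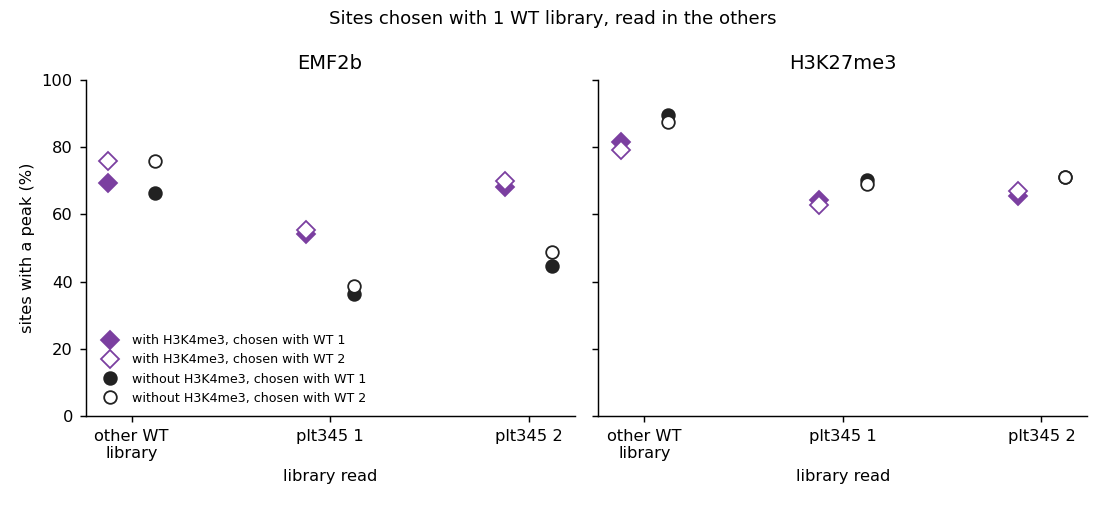
Share of sites (%) with an EMF2b peak (left) or an H3K27me3 peak (right) in libraries that did not choose them, for sites with H3K4me3 (diamonds) and without it (circles); filled symbols were chosen with WT replicate 1 and open symbols with WT replicate 2. Diamonds and circles for EMF2b lie together in the held-out WT library and apart in both plt345 libraries.

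The H3K27me3 difference by H3K4me3 depended on how the sites were chosen and read. A peak remained at 73.8% and 72.6% of sites with H3K4me3 and at 76.6% and 77.5% of sites without it, a difference of −3.82 ± 1.5 percentage points (SD, n = 2). The sign turned with the setting: it was 1.29 when 50% of the site had to be covered, 2.96 with the stronger peaks of each list and 0.227 at equal numbers of peaks. Each of these settings was applied to the PLT5 peaks too, so sites with a short or weak PLT5 overlap could be let in. The sign also turned between terciles of H3K27me3 strength, being 12.4 ± 3.43 in the middle and −9.90 ± 6.96 in the highest. H3K27me3 was lost at 27 of 168 sites with H3K4me3 (16.1%, 11.3 to 22.4%) and 132 of 862 without it (15.3%, 13.1 to 17.9%).

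In the held-out reads H3K27me3 was lower with H3K4me3 in WT and plt345 alike. Of sites chosen with WT replicate 1, WT replicate 2 had H3K27me3 at 81.4% with H3K4me3 and 89.5% without it, and plt345 replicates 1 and 2 at 64.1% and 65.5% with and 70.3% and 71.1% without it. For sites chosen with WT replicate 2, WT replicate 1 gave 79.1% with and 87.5% without H3K4me3, and plt345 gave 62.6% and 67.0% with and 69.1% and 71.0% without it. The gap was thus already present between the WT replicates.

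H3K4me3 itself was not used to choose the 1078 sites, but the sites were chosen by the WT state of EMF2b and H3K27me3, and the sign of the H3K4me3 difference turned with the genotype that chose them. The share with a peak was 17.8 ± 1.31% for the WT libraries and 14.4 ± 0.262% for the mutant ones (SD, n = 2 each), a difference of −3.43 percentage points. Both plt345 libraries, at 14.6% and 14.2%, lay below both WT libraries. At the 1013 sites chosen in plt345 the order was the opposite, with H3K4me3 at 24.6% and 23.3% in the WT libraries and 27.8% and 26.9% in the mutant ones. For the 1078 sites the exact two-sided permutation test over libraries gave p = 0.333, the smallest that 2 against 2 allow, so the difference cannot pass 0.05. The sign turned to 0.316 with the peaks at or above the 25th percentile of −log10 q. That setting also dropped the weaker PLT5 peaks from the choice. PLT5-bound sites went from 71.3 ± 0.673% to 63.0 ± 0.434% and all EMF2b sites from 54.0 ± 0.493% to 47.6 ± 0.0112%, with the same exact permutation p.

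The share of sites that lost H3K4me3 was larger than over all EMF2b sites with it, and few sites gained it. These classes were set by the WT libraries, so disagreement between libraries also appears as loss or gain. Of the 168 sites with it, 112 (66.7%) kept it in both plt345 libraries and 33 (19.6%, 14.3 to 26.3%) had it in neither, against 9.07% of all 6419 EMF2b sites with H3K4me3 in both WT libraries. Of the 862 sites without it, 12 gained it in both plt345 libraries (1.39%, 0.798 to 2.42%), against 1.96% of all 5419 such EMF2b sites. Sites that lost H3K4me3 had EMF2b at 60.6% and 78.8% in plt345 replicates 1 and 2, and H3K27me3 at 66.7% and 72.7%. At sites that kept H3K4me3 the shares were 60.7% and 74.1% for EMF2b and 72.3% and 69.6% for H3K27me3, so the EMF2b shares of these classes were alike within the spread of the libraries.

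The 12 sites that gained H3K4me3 mostly kept the Polycomb marks. EMF2b was kept at 10 of them and H3K27me3 at 11. Among the 827 sites with H3K4me3 in no library EMF2b was kept at 293 and H3K27me3 at 569. The 12 sites are few, and no share over all EMF2b sites that gained H3K4me3 is given here. The strongest of the 12 by WT EMF2b, singled out after the values were seen, lay on chromosome 5 from 18106068 to 18106685. H3K4me3 covered none of it in WT and 347 and 320 bp in plt345 replicates 1 and 2, while H3K27me3 covered all 618 bp in all 4 libraries and EMF2b 616, 529, 543 and 530 bp. All 4 EMF2b libraries and both mutant H3K4me3 libraries were thus present there together.

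Named sites were taken by rank of WT EMF2b strength within each state, and their values were given for both libraries of each genotype. Among the 60 sites with H3K4me3 that kept both marks, the strongest was on chromosome 8 from 16294842 to 16295554. Its EMF2b −log10 q was 43.6 and 44.0 in the WT libraries, against 11.6 and 13.0 in those of plt345. EMF2b covered 713 and 656 bp of it in the WT libraries, against 386 and 382 bp in the mutant ones. H3K27me3 covered 713, 507, 638 and 327 bp and H3K4me3 355, 331, 352 and 283 bp of it in WT 1, WT 2, plt345 1 and plt345 2. All marks were present in all libraries, and EMF2b of plt345 covered less of the site, whose edges were set by the WT peaks. The next were chromosome 1 from 16003188 to 16003851 and chromosome 8 from 5877585 to 5878305, with mean WT EMF2b −log10 q of 33.1 and 23.8.

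Sites without H3K4me3 that kept both marks numbered 233. The strongest, on chromosome 9 from 6905326 to 6906419, had EMF2b over 1094 and 969 bp in WT, against 897 and 946 bp in plt345, and H3K27me3 over 941 and 1015 bp and 832 and 934 bp. On chromosome 10 from 10789223 to 10790123 EMF2b reached a −log10 q of 37.5 and 47.7 in the WT libraries, against 36.1 and 46.4 in the mutant ones. The −log10 q ranges of the genotypes overlapped at that site. The site ranked next, on chromosome 11 from 11078008 to 11078682, was covered over its whole 675 bp by H3K27me3 in all 4 libraries.

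EMF2b was lost and H3K27me3 kept at 258 of the 862 sites without H3K4me3 (29.9%) and at 17.3% of the 168 with it. Over all 5107 EMF2b sites on H3K27me3 this state held 10.3%. Among sites that lost EMF2b, H3K27me3 was kept at similar shares, 69.5% without and 65.9% with H3K4me3. The strongest sites without H3K4me3 come first. On chromosome 12 from 19393885 to 19394678 EMF2b covered 727 and 789 bp in WT, with a −log10 q of 43.8 and 41.3, and none in either plt345 library. H3K27me3 covered all 794 bp in all 4 libraries, inside a WT domain of 3818 bp. No EMF2b peak was thus listed in the mutant at one of the strongest chosen sites, inside an unbroken H3K27me3 peak. On chromosome 5 from 9133861 to 9134609 the same pattern was found, with EMF2b over 749 and 685 bp in WT and none in plt345, and H3K27me3 over all 749 bp in the 4 libraries. The site ranked next was chromosome 11 from 19778389 to 19779238, with a mean WT EMF2b −log10 q of 22.4.

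With H3K4me3, 29 of 168 sites (17.3%) had lost EMF2b and kept H3K27me3. The strongest, on chromosome 4 from 24462891 to 24463377, had EMF2b over 487 and 446 bp in WT and none in plt345, and H3K27me3 over 168, 487, 263 and 447 bp in WT 1, WT 2, plt345 1 and plt345 2. H3K4me3 covered all 487 bp in both WT libraries and none and 115 bp in plt345. EMF2b and most of the H3K4me3 were thus missing together at this site. On chromosome 2 from 34763465 to 34764333 H3K4me3 went from 433 and 348 bp to none and 66 bp, and on chromosome 12 from 2405885 to 2406203 from 251 and 286 bp to 251 bp and none.

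EMF2b was kept and H3K27me3 lost at 13 of 168 sites with H3K4me3 (7.74%) and 43 of 862 without it (4.99%). Over all 5107 EMF2b sites on H3K27me3 the share was 9.58%. On chromosome 9 from 9088331 to 9088848, the strongest with H3K4me3, EMF2b covered 518 and 437 bp in WT, against 411 and 473 bp in plt345. H3K27me3 covered 367 and 273 bp in WT and none in plt345, in a WT domain of 367 bp, and H3K4me3 covered 435, 412, 461 and 414 bp. The lost domain was short and the other marks stayed. On chromosome 8 from 22528809 to 22529738 the lost domain measured 508 bp. At the next, chromosome 10 from 11966617 to 11967702, H3K4me3 was lost as well, from 408 and 377 bp to none. Without H3K4me3 the strongest were chromosome 7 from 4356653 to 4357594, chromosome 5 from 24727501 to 24728471 and chromosome 4 from 23395635 to 23396222, in WT domains of 736, 812 and 377 bp.

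Both marks were lost at 10 of 168 sites with H3K4me3 (5.95%) and 62 of 862 without it (7.19%). Over all 5107 EMF2b sites on H3K27me3 the share was 2.39%. On chromosome 3 from 4248406 to 4249153 EMF2b covered 713 and 739 bp and H3K27me3 275 and 495 bp in WT, with neither in plt345. H3K4me3 stayed there, over 335 and 406 bp in WT, against 422 and 284 bp in plt345, and was the only one of the 3 marks listed in plt345. The WT H3K27me3 peaks were weak, with a −log10 q of 1.93 and 1.35, where the lowest listed was 1.03 in both WT libraries. H3K4me3 also stayed on chromosome 1 from 31794544 to 31795133, over 289, 366, 267 and 246 bp. The WT H3K27me3 −log10 q there was 5.86 and 6.22. On chromosome 10 from 13096841 to 13097542 H3K4me3 fell from 259 and 248 bp to 63 bp and none. Without H3K4me3 the strongest was chromosome 5 from 6614197 to 6614845, with 566 and 594 bp of EMF2b and 468 and 286 bp of H3K27me3 in WT and no peak of any of the 3 antibodies in plt345. The next were chromosome 2 from 32984360 to 32984986 and chromosome 12 from 8736329 to 8736940.

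Sites that lost a mark differed in their WT values. The median EMF2b −log10 q in WT was 9.27 at sites that lost EMF2b and 10.2 at sites that kept it, with quartiles of 7.64 to 11.6 and 8.44 to 13.3. Sites that lost H3K27me3 lay in WT domains of 800 bp at the median, against 1949 bp for those that kept it. Sites that lost EMF2b lay in wider domains, 1774.5 bp at the median, than sites that kept it, 1456.5 bp. Domain width thus went in opposite directions for the losses of the 2 marks.

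The distance from a lost peak to the nearest peak of the mutant differed between the marks. The nearest plt345 EMF2b peak of either library lay at a median of 6246 bp from sites that had lost EMF2b, and within 1 kb at 60 of 426 (14.1%). For lost H3K27me3 the median gap was 1706 bp, and 55 of 170 sites (32.4%) had a plt345 peak within 1 kb and 122 (71.8%) within 5 kb. Whether these were displaced peaks was not tested. The plt345 H3K27me3 lists were also the longer, with 20841 and 20942 peaks against 15342 and 17891 for EMF2b. The part of list length in the shorter gap was not tested. Where both plt345 libraries kept EMF2b its cover of the site was 455 ± 24.0 bp against 601 ± 35.2 bp in WT, and where they kept H3K27me3 it was 511 ± 5.18 bp against 557 ± 2.2 bp (SD, n = 2 each). The edges of the sites were set by the WT EMF2b peaks, which favours WT cover. The shortest EMF2b peak listed was 247 and 249 bp in plt345 and 290 and 285 bp in WT, and the part of this list property in the narrower cover was not tested.

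EMF2b shares were close at all distances from PLT5. EMF2b was found in plt345 at 49.0 ± 7.86% of the 99 sites with a PLT5 peak within 1 kb, 50.4 ± 6.92% of the 521 with one at 1 to 10 kb and 51.3 ± 9.26% of the 458 with none within 10 kb (SD, n = 2), differences within the spread of the libraries. Sites with a PLT5 peak elsewhere in their H3K27me3 domain, 102 in number, had H3K27me3 in plt345 at 84.8 ± 0.693%, against 75.2 ± 0.217% of the other 976, and their domains were wider, with medians of 3050.5 and 1491 bp.

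Every chromosome held such sites, from 70 on chromosome 5 to 123 on chromosome 3. They made up 5.18% of the EMF2b sites of chromosome 1 and 12.6% of those of chromosome 11. The share that had lost EMF2b ran from 29.3% on chromosome 8 to 43.7% on chromosome 10, and the share that had lost H3K27me3 from 10.9% on chromosome 7 to 24.3% on chromosome 5, and both kinds of loss were found on every chromosome.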

How the data were processed

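Peaks of 14 CUT&Tag libraries were used, 2 per group. MACS2 2.2.7.1, deepTools 3.5.0, Trim Galore 0.6.6 and Bowtie2 2.4.4 appear in the submitters' processing notes with no role or order, and no source used here names the genome build or a control library. Each library has its own deposited list, so the authors called peaks per sample. Per the peak names in the deposited lists, narrow lists have a p cutoff of 1e-05 and H3K27me3 lists a broad cutoff of 0.1. The deposited values are peak start and end, a fold enrichment (a ratio to that library's background), −log10 p, −log10 q and a score of 10 times one of these. Folds and −log10 q are the authors'; they depend on depth, which is unknown, and were used only to describe and rank.

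Overlapping or adjoining EMF2b peaks were merged with Python 3.11.15 (numpy 2.4.6, pandas 2.3.3, scipy 1.17.1). A mark was present in a library when its peaks covered at least 1 bp of a site. Shares have Wilson 95% intervals, which cover counting error only. Named sites are the 3 strongest by mean WT EMF2b −log10 q in each of 8 classes (EMF2b and H3K27me3 each kept or lost, with or without H3K4me3). Interval code was tested on simulated data. Sites and comparisons were chosen with earlier results of these data known. Alternatives were 150 bp or 50% cover, stronger peaks, equal peak numbers, a PLT5 margin of 1000 bp, left-out libraries and pairing by replicate number. The comparison of held-out libraries by H3K4me3, and H3K4me3 at PLT5-bound sites, were added after the data were seen.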

Additional observations from a re-analysis of the deposited data

Results flagged for a closer look

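The H3K27me3 difference between sites with and without H3K4me3 had opposite signs in different ranges of WT H3K27me3 strength. The mean difference in the share with a peak in plt345 was 12.4 percentage points in the middle tercile (39 and 306 sites; 14.9 and 10.0 in replicates 1 and 2) and −9.90 in the highest (57 and 290 sites; −4.98 and −14.8). Both libraries had one sign in the first range and the other sign in the second. The difference between the terciles was not tested, and the classes with H3K4me3 are small.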

How the results depend on the processing

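Of 60 alternative values, 37 stayed within the spread of the libraries (counts within 1.5 times, and the tested H3K4me3 difference in direction), 19 moved and 4 turned in sign. Some of the 37 were fixed in advance. With 1 plt345 library left out, a share cannot leave the SD of 2 libraries, and a difference could change label only by its sign. The number of sites cannot change there either, since plt345 did not choose them. The number of sites was 632 with peaks at or above the 25th percentile of −log10 q, and 1078 to 2296 with 1 library left out. It was 2296 without WT replicate 1 and 2253 without WT replicate 2, where a site needs fewer peaks. Leaving out a WT replicate also dropped its PLT5 list, so sites with a PLT5 peak in that library alone were let in. All values without a WT replicate are of such sets. With both PLT5 lists kept, 1675 sites were chosen with WT replicate 2 and 1851 with WT replicate 1. The settings for cover, stronger peaks and equal peak numbers were applied to PLT5 too. Sites with a short or weak PLT5 overlap could thus be let in, and 50% cover gave 1213 sites. The share with EMF2b in plt345 was 45.0 to 56.3% with 1 library left out. It stayed within its spread under all alternatives, a spread that the values without a plt345 replicate could not leave. The share with H3K27me3 was 75.2% at 150 bp, 73.7% at 50% of the site, 73.6% with stronger peaks and 81.7% at equal numbers of peaks, and 69.3 to 76.3% with 1 library left out. The EMF2b difference by H3K4me3 was 21.2 points at 150 bp, 30.9 at 50% of the site and 14.6 to 25.1 with 1 library left out. The H3K27me3 difference by H3K4me3 was −1.41 points at 150 bp, 1.29 at 50% of the site, 2.96 with stronger peaks, 0.227 at equal numbers of peaks and −5.41 to −1.52 with 1 library left out. The H3K4me3 difference between genotypes was 0.316 points with stronger peaks and −5.15 to −3.16 with 1 library left out. The cause of these changes was not tested.

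Same-numbered libraries of the genotypes did not deviate together (Pearson r of replicate differences 0.0143 for EMF2b, −0.00716 for H3K27me3 and −0.00489 for H3K4me3, across 23935 to 30126 regions, which are not independent), so the numbers were not taken as pairs. With the replicate block, in which sites are chosen and read by number, there were 2274.5 sites on average, H3K27me3 remained at 69.9%, and the EMF2b difference by H3K4me3 was 22.7 points. Depth is unknown, and 2 libraries per group cannot give a p under 0.333 by exact permutation.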
